A study of Mus musculus with 4 samples.

Results

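The bone morphogenetic protein (BMP) and transforming growth factor beta (TGF-beta) pathway genes were examined as 37 of the 11747 rows of a gene expression table from mouse embryonic stem cell derived motor neuron cultures. They were chosen by a rule on gene names, set with earlier results of these data known. The rule took the Bmp, Gdf, Tgfb and Inhb ligand names and the Bmpr, Acvr and Tgfbr receptor names. It also took the Smad, Smurf and Ltbp names, and the antagonists and co-receptors Nog, Chrd, Fst, Bambi, Grem1 and Eng. RNA sequencing gave a level for each gene in 4 libraries, 2 per group. All 4 came from embryoid bodies, floating cell aggregates, of a line derived from A172LoxP embryonic stem cells that carries a doxycycline-inducible transgene for a transcription factor. Patterning took 2 days in all trans retinoic acid (0.5 µM) with purmorphamine (1 µM), which activates the Sonic hedgehog pathway, and the bodies were then kept for 2 to 3 days more with vehicle (labelled Dox Negative) or with 2 µg/mL doxycycline (labelled Dox Positive). Both groups therefore carry the transgene, and doxycycline given to cells without it was not analysed here. The promoter of the inducible cassette and the number of clones are not given in the sources used here. The deposited table numbers the libraries 1 and 7 without and 2 and 8 with doxycycline.

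Ligands of this family are secreted as dimers that bind a complex of type I and type II receptor kinases. Receptors for BMPs phosphorylate SMAD1, SMAD5 and SMAD9, and receptors for TGF-beta, activin and Nodal phosphorylate SMAD2 and SMAD3. These receptor-regulated SMADs enter the nucleus with the common partner SMAD4, while SMAD6 and SMAD7 are inhibitors that the pathway induces as feedback. In the neural tube BMPs from the roof plate pattern the dorsal side, and antagonists such as noggin, chordin and follistatin keep signalling low ventrally, where motor neurons form.

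Estimated reads per library ranged from 22434755 to 30235763, and each row reached 101 estimated reads or more in some library. The labels do not tell whether replicate libraries are separate cultures, and the p-values cover only the spread among these libraries, part or all of which may be technical. Of 64 family genes looked for by name, 25 were not listed, among them Bmp5, Gdf7, Inhba, Inhbb, Grem1, Eng, Acvrl1, Smad9 and Ltbp2. Absence from the table does not show absence of expression. The row of Smad2 has no symbol in the table and so fell outside the name rule. Matched by accession, it was at 2970 and 3005 normalized counts (libraries 1 and 7) against 2715 and 2727 (libraries 2 and 8). The motor neuron label was checked against 6 markers, all of which were listed. Their summed normalized counts were 9573 and 9091 without doxycycline and 4389 and 3582 with it. The table also listed 6 of 7 endoderm markers, whose summed counts ranged from 8795 to 19089.

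Library values are given in the order 1 and 7 (untreated), then 2 and 8 (treated), unless libraries are named otherwise. Differences below are between means of log2(normalized count + 1), with minus without doxycycline, and each is given ± SE from a limma fit over all rows. None of the 37 genes passed the test (limma, Benjamini-Hochberg adjusted p under 0.05), where 2.37% of all rows did, 0.579% higher and 1.79% lower. At an unadjusted p under 0.05 there were 3 of them, Acvr1b, Ltbp4 and Ltbp3, which is 8.11% of the 37 against 21.1% of all rows. Values ran from -0.49 (Nog) to 0.68 (Bmpr1b). The 2 groups did not overlap for 15 genes, which is 40.5% against 53.2% of all rows. Of these, 6 were higher with doxycycline (26.7% of all rows were) and 9 lower (26.5%). Of the 37 values, 27 lay below 0, or 73%, against 49.4% of all rows, and their median was -0.07 against 0.00 over all rows. This tilt varied in size as single libraries were left out. The number of the 37 above 0 was 10 with all libraries. It was 12, 17, 16 and 15 without library 1, 2, 7 and 8 in turn. The medians of the 37 in those fits were -0.08, -0.04, -0.03 and -0.05, against 0.00 over all rows in each. For 33 of the 37 the 95% interval of the difference stayed within 2-fold in either direction, and 92.6% of all rows met this. The exceptions were Bmpr1b, Nog, Fst and Tgfbr3, for which these 4 libraries leave a change of more than 2-fold possible.

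**Figure D1:**
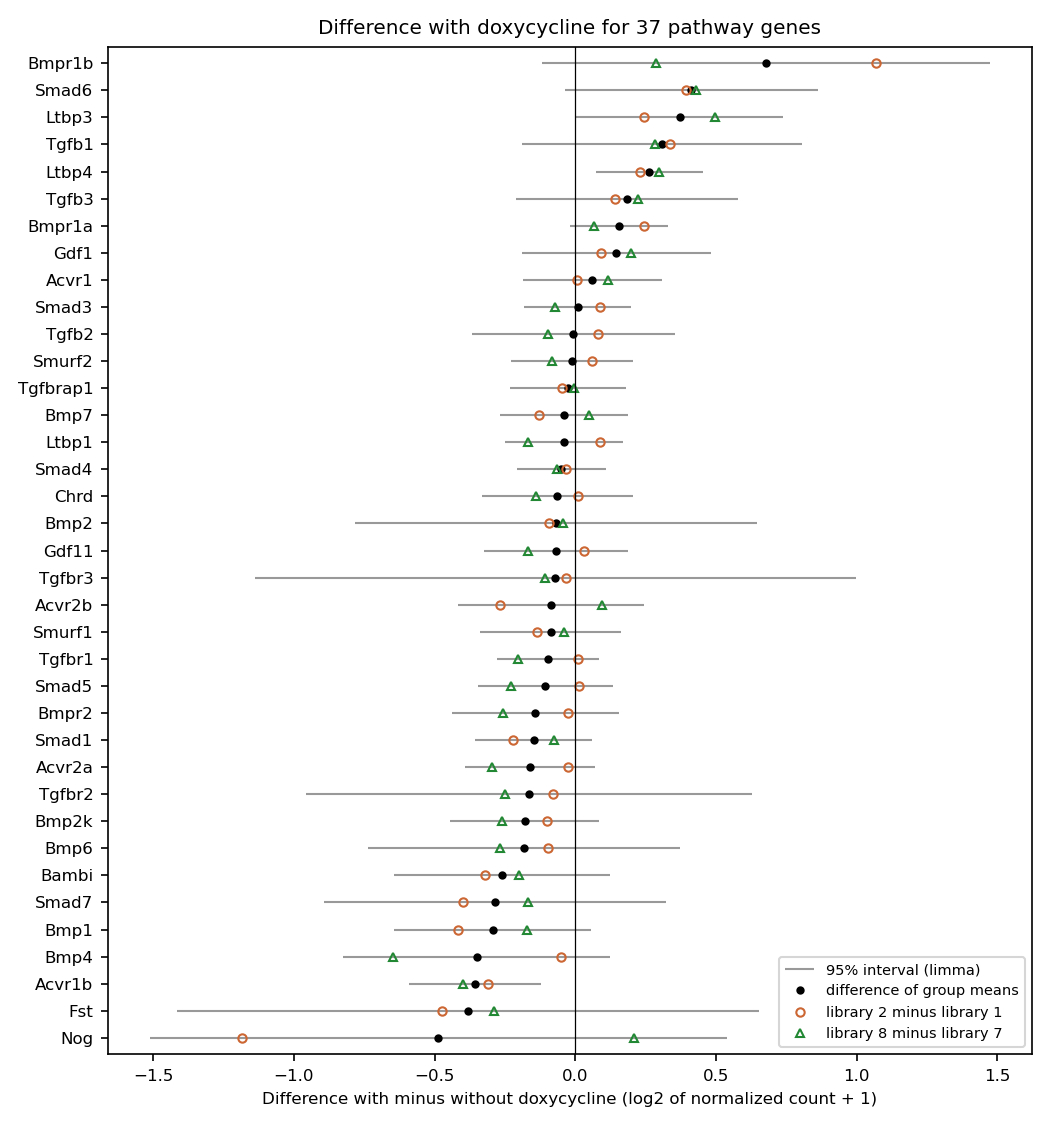
Difference with minus without doxycycline on the log2(normalized count + 1) scale (x axis) for each of the 37 genes (y axis), as the difference of group means (black), its limma 95% interval (grey line) and the differences library 2 minus library 1 (open circles) and library 8 minus library 7 (open triangles). Only the intervals of Acvr1b, Ltbp4 and Ltbp3 leave out 0, and the intervals of Nog, Fst, Tgfbr3 and Bmpr1b are the widest.

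The promoters of 3 type I receptor genes are shown first, since receptor genes had both the smallest p and the largest rise in value among the 37. Each is the 250 bases before the transcription start in RefSeq, build GRCm38.p6, written 5′ to 3′ on the gene's strand, with motif matches in capitals. Acvr1b lies at chr15:101173822-101174071 (plus strand), Bmpr1a at chr14:34502547-34502796 (minus strand) and Bmpr1b, at the first of 3 starts listed for it, at chr3:141982265-141982514 (minus strand).
Acvr1b: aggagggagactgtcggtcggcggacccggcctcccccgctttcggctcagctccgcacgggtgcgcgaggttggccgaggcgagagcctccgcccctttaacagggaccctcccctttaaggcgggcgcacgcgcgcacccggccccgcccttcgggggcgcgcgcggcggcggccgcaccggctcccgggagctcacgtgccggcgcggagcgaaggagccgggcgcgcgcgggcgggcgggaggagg
Bmpr1a: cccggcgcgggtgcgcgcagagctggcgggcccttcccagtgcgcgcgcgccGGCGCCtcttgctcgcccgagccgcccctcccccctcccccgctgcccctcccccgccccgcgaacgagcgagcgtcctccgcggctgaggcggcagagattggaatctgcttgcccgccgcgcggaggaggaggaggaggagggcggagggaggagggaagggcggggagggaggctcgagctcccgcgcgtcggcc
Bmpr1b: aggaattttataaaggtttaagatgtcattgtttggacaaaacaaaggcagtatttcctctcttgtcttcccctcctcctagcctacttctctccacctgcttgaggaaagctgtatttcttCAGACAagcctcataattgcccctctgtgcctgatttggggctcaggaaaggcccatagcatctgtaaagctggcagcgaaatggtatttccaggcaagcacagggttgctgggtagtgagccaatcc
The windows of Acvr1b and Bmpr1a were each 78.8% G and C, and that of Bmpr1b 46.8%. Both strands were searched for the SMAD binding element CAGACA, the GC-rich core GGCGCC of BMP-type SMAD elements (its own reverse complement), the homeodomain core TAATTA and the GATA motif AGATAA. Bmpr1a held GGCGCC 198 bases before the start, Bmpr1b held CAGACA 128 bases before it, and Acvr1b held none of these letters. Of the 37 genes, 27 had an entry in the promoter table. GGCGCC occurred in 7 of the 27 windows (25.9%), those of Bmp2k, Bmpr1a, Bmpr2, Chrd, Gdf1, Smurf2 and Tgfbr1, and in 9.54% of the first listed windows of 27025 genes. CAGACA occurred in 3 of 27 (11.1%) against 17.1%. TAATTA and AGATAA occurred in none of the 27, against 4.9% and 10.3% of all windows. These shares were not matched for base composition.

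Among ligands, Bmp7 had the highest level for its transcript length, at a mean of 381 normalized counts per kb over the 4 libraries. Gdf11, a ligand that patterns the body axis and limits neurogenesis, followed at 193, then Gdf1 at 107 and Bmp4 at 104, while Bmp2 was at 53.2 and Bmp6 at 26.7. The TGF-beta genes Tgfb3, Tgfb1 and Tgfb2 were at 85.8, 45.8 and 38.1 per kb. Gdf1, a partner of Nodal, is transcribed together with Cers1, so reads of that transcript cannot be assigned to either gene alone. The ligand levels were thus spread over more than a factor of 10, with the Bmp7 values of all 4 libraries above those of every other ligand.

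**Figure D2:**
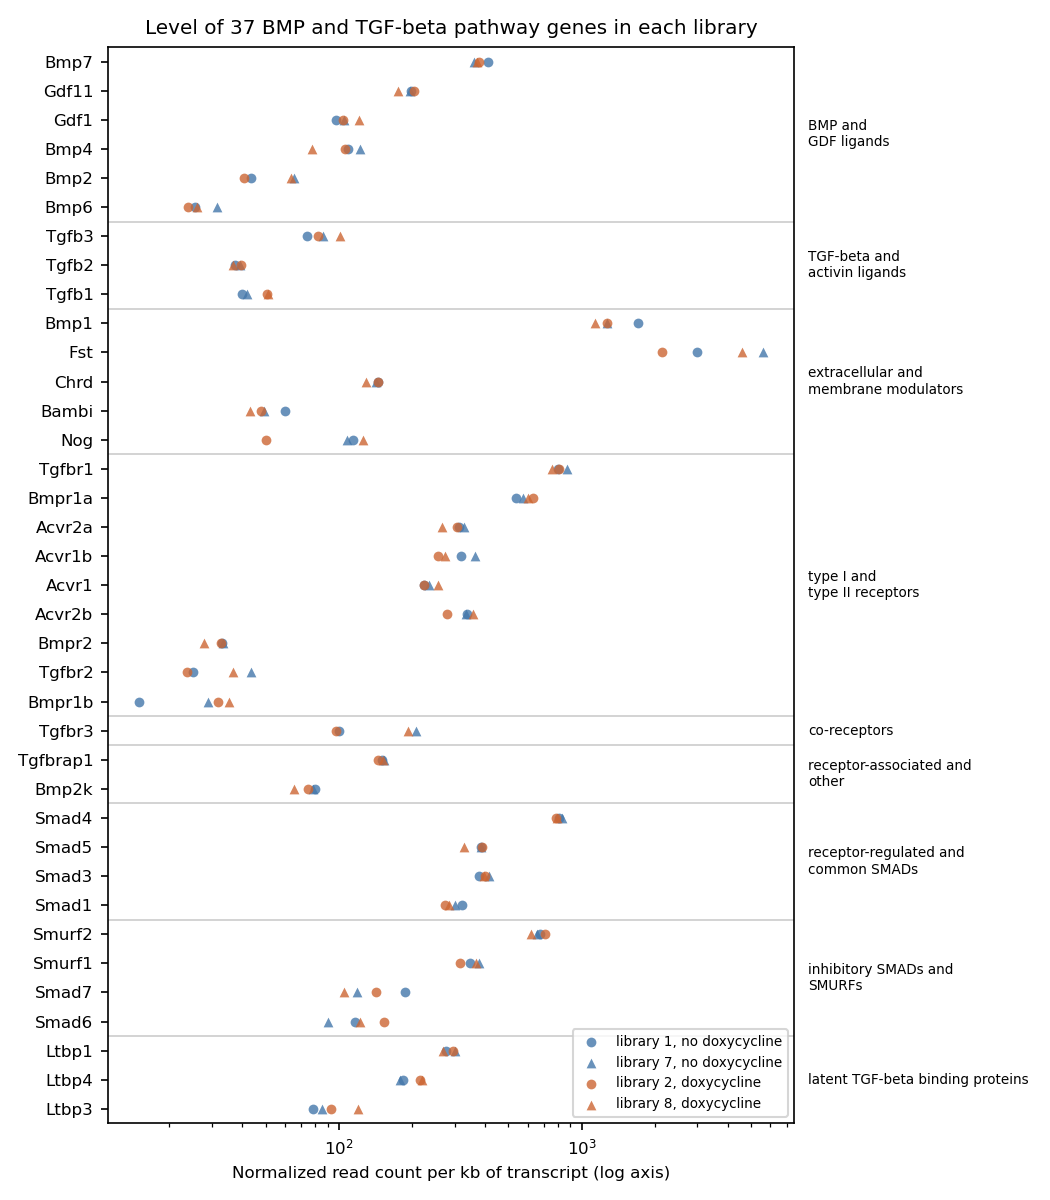
Normalized read count per kb of transcript (x axis, log scale) of each of the 37 genes (y axis, grouped by role) in libraries 1 and 7 without doxycycline (blue) and 2 and 8 with it (orange). Fst and Bmp1 had the highest levels, Bmp6 and Bmpr1b the lowest mean levels, and circles (libraries 1 and 2) lie apart from triangles (7 and 8) for Fst, Tgfbr3, Tgfbr2 and Bmp2.

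No ligand gene passed the test for doxycycline. Bmp4, a dorsalizing ligand, was at 226 and 252 normalized counts (libraries 1 and 7) against 218 and 161 (libraries 2 and 8). The groups did not overlap, but the difference was -0.05 between libraries 2 and 1 and -0.65 between 8 and 7 (-0.35 ± 0.19 over all 4; limma, adjusted p = 0.361). Tgfb1 was at 86.7 and 91.3 in the untreated and 109.6 and 111 in the treated libraries, higher in both comparisons (0.31 ± 0.20; limma, adjusted p = 0.442). Gdf1 was at 266 and 287 in the untreated and 284 and 329 in the treated libraries, so the groups overlapped (0.15 ± 0.14; limma, adjusted p = 0.593). Bmp7 was at 1515 and 1321 in the untreated and 1384 and 1367 in the treated libraries, both treated libraries lying between the untreated ones (-0.04 ± 0.09, with a 95% interval from -0.27 to 0.19). Bmp2, Bmp6, Gdf11, Tgfb2 and Tgfb3 had differences between -0.18 and 0.18.

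The extracellular and membrane modulators were all lower in value with doxycycline, and none of the 5 passed. Fst encodes follistatin, which binds and blocks activins, and it had the highest level of all 37 genes, 3828 normalized counts per kb, on a matched transcript of 1113 bases. Bmp1 came next at 1349 per kb. It is not a ligand but a secreted protease that cleaves procollagens and chordin. Bmp1 was at 7391 and 5552 normalized counts (libraries 1 and 7) against 5541 and 4931 (libraries 2 and 8). Library 1 stood above the other 3, and libraries 7 and 2 nearly touched (-0.29 ± 0.14; limma, adjusted p = 0.306). Without library 7 the value of Bmp1 passed (-0.50; limma, adjusted p = 0.0412), a fit in which library 1 alone stands for its group, and without library 1 it was -0.087 (limma, adjusted p = 0.85). Bambi, a decoy receptor without a kinase domain, was at 304 and 250.2 in the untreated and 243 and 218 in the treated libraries (-0.26 ± 0.16; limma, adjusted p = 0.401).

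Nog, which encodes the BMP antagonist noggin, was at 194 and 184 normalized counts in libraries 1 and 7, at 84.9 in library 2 and at 213 in library 8. Library 2 alone was low and library 8 was the highest of the 4, so the difference of -0.49 ± 0.42 (limma, adjusted p = 0.555) rested on library 2. Without that library the value was 0.17. Chrd, which encodes chordin, was at 473 and 467 in the untreated and 476 and 424 in the treated libraries, with overlapping groups and a 95% interval from -0.33 to 0.20.

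Receptor genes gave the smallest p of the 37 and the largest rise in value. Acvr1b, a type I receptor for activin and Nodal, was at 1404 and 1601 normalized counts (libraries 1 and 7) against 1133 and 1213 (libraries 2 and 8). Both treated libraries lay below both untreated ones, by 0.31 between libraries 2 and 1 and by 0.40 between 8 and 7. The difference of -0.35 ± 0.10 had a 95% interval from -0.59 to -0.12 before adjustment and did not pass over all rows (limma, adjusted p = 0.122). Its type II partners were at similar levels per kb, 304 for Acvr2a and 328 for Acvr2b against 303 for Acvr1b. Acvr2a was lower in value (-0.16 ± 0.09) and Acvr2b overlapped between groups (-0.09 ± 0.13).

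The BMP type I receptor genes Bmpr1a and Bmpr1b, whose promoters are printed above, both had higher values with doxycycline. Bmpr1b was at 80.4 and 155 normalized counts (libraries 1 and 7) against 169.8 and 189 (libraries 2 and 8). Library 1 was the low one, so the difference was 1.07 between libraries 2 and 1 but 0.29 between 8 and 7 (0.68 ± 0.32, 95% interval from -0.12 to 1.47; limma, adjusted p = 0.30). Without library 1 it was 0.21 and without library 7 it was 1.14. Bmpr1a was at 3184 and 3422 in the untreated and 3770.3 and 3587 in the treated libraries (0.16 ± 0.07; limma, adjusted p = 0.281). Per kb, Bmpr1a was at 586 and Bmpr1b at 27.7, so Bmpr1a made up nearly all of this receptor pair in every library. Acvr1, the further type I receptor for BMPs, was at 235 per kb with a difference of 0.06 ± 0.10, and the type II receptor gene Bmpr2 at 31.7 per kb with -0.14 ± 0.12.

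Of the TGF-beta receptors, Tgfbr1 was the most abundant receptor gene at 808 per kb and differed by -0.10 ± 0.07. Tgfbr2, its type II partner, was at 32.1 per kb. It was at 202 and 351 normalized counts (libraries 1 and 7) against 191 and 295 (libraries 2 and 8). Tgfbr3, which encodes the co-receptor betaglycan, was at 607 and 1270.2 in the untreated and 593 and 1178 in the treated libraries. For both genes the libraries numbered 7 and 8 stood above 1 and 2, while the treated and untreated libraries overlapped (-0.16 ± 0.32 and -0.07 ± 0.43). The receptor-associated gene Tgfbrap1 (-0.03 ± 0.08) and Bmp2k, a kinase named for its induction by BMP2 (-0.18 ± 0.11), did not pass either.

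The receptor-regulated and common SMAD genes had differences between -0.15 and 0.01, none past the test. Smad4 was at 2732 and 2815 normalized counts in the untreated and 2668 and 2690.3 in the treated libraries, and its 95% interval ran from -0.21 to 0.11. Smad3 was at 1924 and 2109 in the untreated and 2045 and 2008 in the treated libraries, with the treated libraries between the untreated ones (0.01 ± 0.08). Smad1 (-0.15 ± 0.08) and Smad5 (-0.11 ± 0.10), the BMP-side SMADs, were at 295 and 373 per kb. Smad3 was at 397 and Smad4 at 806 per kb, the highest of the 4.

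The inhibitory SMAD genes differed in opposite directions in value. Smad6, which acts mainly on BMP signalling, was at 348 and 268 normalized counts (libraries 1 and 7) against 457 and 362 (libraries 2 and 8). Both treated libraries lay above both untreated ones, by 0.39 between libraries 2 and 1 and by 0.43 between 8 and 7 (0.41 ± 0.18; limma, adjusted p = 0.270). The value was 0.24 without library 2 and 0.23 without library 7. Smad7, which acts on both branches, was at 799.8 and 507 in the untreated and 606 and 451 in the treated libraries, so the groups overlapped (-0.28 ± 0.25; limma, adjusted p = 0.560). The ratio of Smad6 to Smad7 within a library does not depend on the library's scaling. It stood at 0.435 (library 1) and 0.530 (library 7) without and at 0.755 (library 2) and 0.802 (library 8) with the drug, higher in both treated libraries. The ratio was chosen after these values were seen and was not tested. The ubiquitin ligase genes Smurf1 and Smurf2, whose products mark receptors and SMADs for degradation, had differences of -0.09 ± 0.10 and -0.01 ± 0.09.

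Latent TGF-beta binding proteins hold secreted TGF-beta in the matrix. Ltbp4 was at 994 and 965 normalized counts (libraries 1 and 7) against 1166 and 1186 (libraries 2 and 8). Both groups were tight and did not overlap (0.26 ± 0.08, 95% interval from 0.07 to 0.45 before adjustment; limma, adjusted p = 0.139). Ltbp3 was at 406 and 441 in the untreated and 481 and 623 in the treated libraries, with library 8 the highest (0.37 ± 0.15; limma, adjusted p = 0.235), and the value was 0.18 without library 8 and 0.56 without library 2. Ltbp1 was at 1849 and 2014 in the untreated and 1965 and 1791 in the treated libraries, so its groups overlapped (-0.04 ± 0.09). Ltbp1 nevertheless had the highest level of the 3 per kb, 286 against 200.1 for Ltbp4 and 94.0 for Ltbp3.

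The libraries differed by their number as well as by treatment. For 20 of the 37 the difference between libraries 7 and 8 and libraries 1 and 2 was larger than that between treatments, which held for 39.4% of all rows. The 2 pairs of libraries did not overlap for 16 of the 37 (43.2%, against 32.6% of all rows), with 10 higher in 7 and 8 (16.5% of all rows were) and 6 lower (16.1%). The labels do not say what the numbers stand for, so these counts are a description with no test. At 1.5-fold or more 4 genes did not overlap, Tgfbr3, Fst, Tgfbr2 and Bmp2. All 4 were higher in libraries 7 and 8, where 1.9% of all rows were. Fst was at 3319 normalized counts in library 1 and 2392 in library 2, against 6233 in library 7 and 5098 in library 8, a difference of 1.00 by number and -0.38 ± 0.42 by treatment. Tgfbr3 differed by 1.03 by number, Tgfbr2 by 0.71 and Bmp2 by 0.61, from 155 and 145 in libraries 1 and 2 to 232 and 225 in 7 and 8. Within each pair of libraries these 4 genes were lower in value with doxycycline, by 0.47 and 0.29 for Fst and by 0.03 and 0.11 for Tgfbr3.

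**Figure D3:**
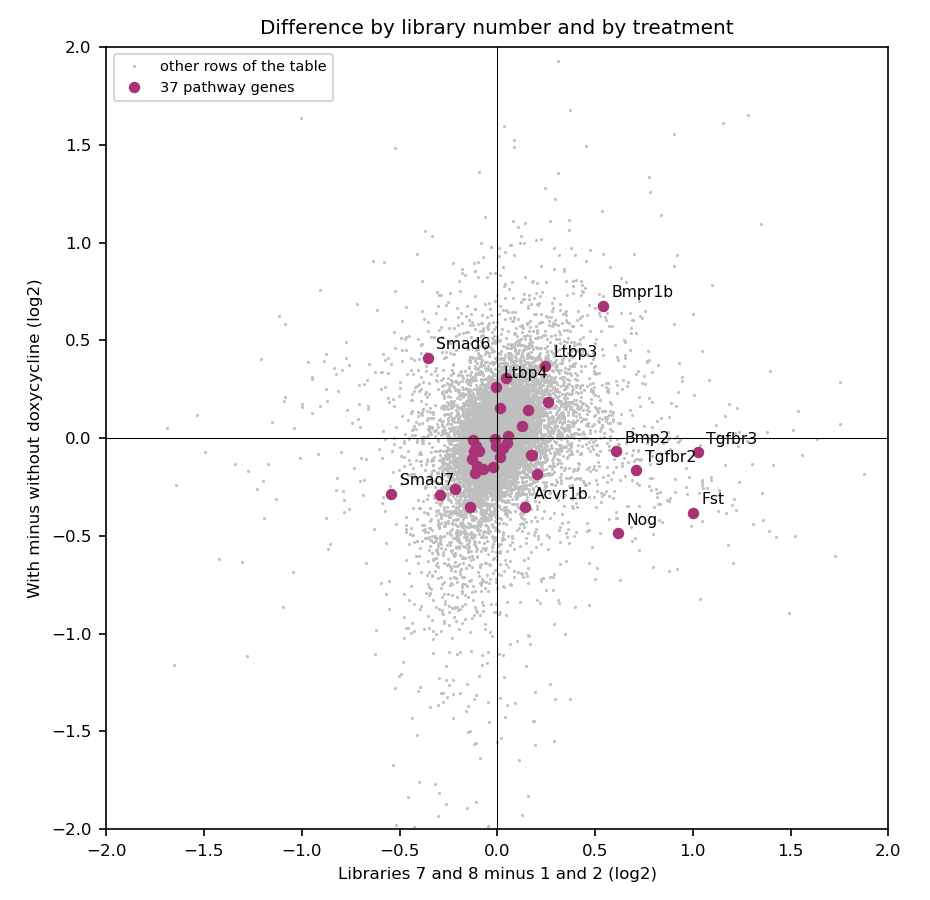
Difference between libraries 7 and 8 and libraries 1 and 2 (x axis) against the difference with minus without doxycycline (y axis), both as differences of mean log2(normalized count + 1), for the 37 genes (purple) and the other rows (grey); the axes hold 99.8% of all rows. Fst and Tgfbr3 lie near 1 on the x axis, and Bmpr1b is the highest of the 37 on the y axis at 0.68.

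Endoderm markers, and less evenly floor plate, endothelial and glial markers, stood higher in the same libraries. All 6 listed endoderm markers, the transcription factor genes Sox7, Sox17, Gata4, Gata6 and Foxa1 and the adaptor gene Dab2, were higher in both libraries 7 and 8 than in 1 and 2, with a median difference of 0.82. Summed, they came to 11828 in library 1 and 8795 in library 2, against 19089 in library 7 and 17520 in library 8. Gata4 alone was at 4460 and 3382 in libraries 1 and 2 against 7239 and 6476 in 7 and 8. The 4 listed floor plate markers had a median difference of 0.78 by number, but of them only Foxa2 was higher in both libraries 7 and 8 than in 1 and 2. Summed endothelial markers were at 1198 and 911 in libraries 1 and 2 against 1614 and 1283 in 7 and 8. Tek and Flt1 among them were higher in both 7 and 8. Summed glial markers were at 4569 and 5060 against 6604 and 6380, and of these only Pdgfra was higher in both 7 and 8. The ratio of Fst to the summed endoderm markers, of which it is no part, was 28.1%, 27.2%, 32.7% and 29.1% in libraries 1, 2, 7 and 8, and that of Tgfbr3 was 5.13%, 6.74%, 6.65% and 6.73%. Across the 4 libraries Fst itself varied 2.61-fold and its ratio to the sum 1.20-fold. Tgfbr3 varied 2.14-fold and its ratio to the sum 1.31-fold, and Tgfbr2 varied 1.84-fold and its ratio 1.29-fold. Bmp2 varied 1.60-fold and its ratio 1.36-fold. These 4 genes were picked for being higher in libraries 7 and 8, where the endoderm sum was higher too. The smaller range of each ratio follows largely from that choice and tells nothing of its source. Pluripotency markers ran the other way, with summed counts of 1737 and 1540 in libraries 1 and 2 and 842 and 719 in 7 and 8. The part of any of these cells in the differences of pathway genes was not tested, and in bulk samples fewer cells of a type and less RNA per cell cannot be told apart.

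**Figure D4:**
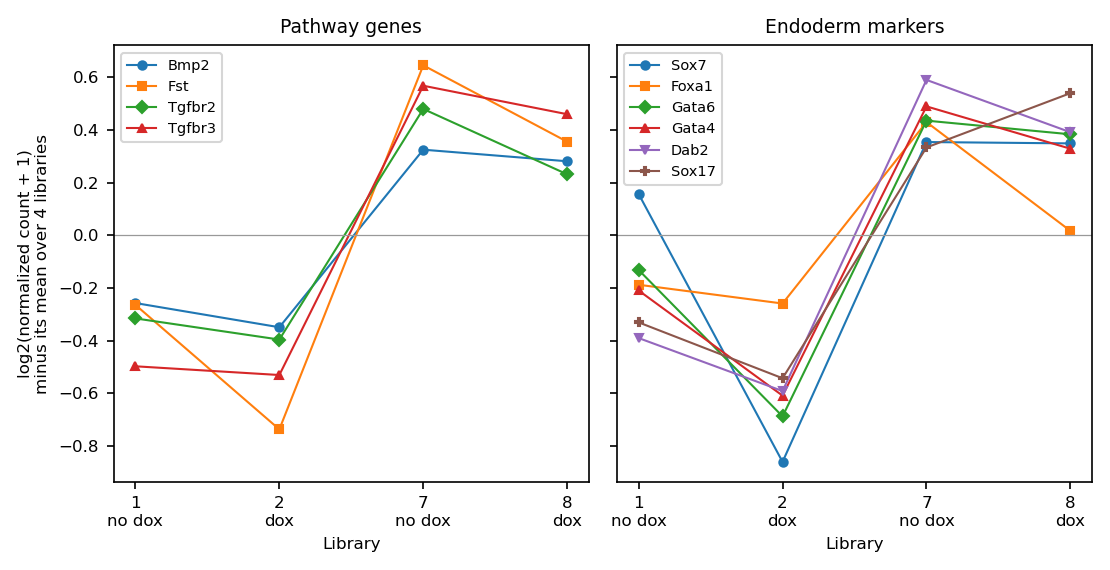
log2(normalized count + 1) minus its mean over the 4 libraries (y axis) in libraries 1, 2, 7 and 8 (x axis) for Fst, Tgfbr3, Tgfbr2 and Bmp2 (left) and for 6 endoderm markers (right). In both panels libraries 7 and 8 lie above 1 and 2 for each gene, and lines only join the values of 1 gene.

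Markers of several cell types differed by treatment. Of the 6 motor neuron markers 5 fell and of the 4 listed neuron markers 3 fell with doxycycline (limma, adjusted p under 0.05), with medians of -1.81 and -1.01. The remaining motor neuron marker, Lhx3, had a value of 0.55 (limma, adjusted p = 0.155). All 4 listed genes of the floor plate list had values above 0 (median 0.81), but only Nkx2-2 passed (2.78 ± 0.34; limma, adjusted p = 0.0251). Spon1 had a value of 0.68 (limma, adjusted p = 0.151). Shh had one of 0.93 (limma, adjusted p = 0.327), and Foxa2 one of 0.37 with overlapping groups (limma, adjusted p = 0.596). Groups were apart and higher for 3 of the 4. With Nkx2-2 alone past the test, a rise of the floor plate as a cell type is not shown. Of 4 listed glial markers only Slc1a3 passed, and it rose (0.52 ± 0.08; limma, adjusted p = 0.0413). Fabp7 had a value of 0.48, Sox9 one of 0.05 and Pdgfra one of -0.45, so the list did not move as one. Only 2 of 5 neural crest markers were listed, and these did not move together. Ngfr fell (-1.43 ± 0.19; limma, adjusted p = 0.0301), while Erbb3 had a value of 0.12 (limma, adjusted p = 0.761). The summed neuron markers were 72307 and 64552 without and 36444 and 29873 with doxycycline. The 5 neural progenitor markers, none of which passed, summed to 11653 and 12169 without and to 12926 and 13601 with it. Of roof plate and dorsal progenitor markers only Zic1 and Msx2 were listed among 9, with no library above 141 normalized counts for either. Of 7 listed mesoderm and mesenchyme markers none passed, nor did any of 4 endothelial ones. All 4 endothelial values lay below 0 (median -0.47). Groups were apart for Cdh5 (-0.72 ± 0.15; limma, adjusted p = 0.0789) and Kdr (-0.85 ± 0.21; limma, adjusted p = 0.106), and overlapped for Tek and Flt1. By library number the mesoderm and mesenchyme markers had a median of -0.04, from -0.87 for Acta2 to 0.99 for Pdgfra, which is also a glial marker. The part of these shifts in the small differences of the 37 genes was not tested.

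Other genes of the pathway, and genes listed as responding to it, were read from lists chosen by role. Of 22 listed extracellular modulators and Nodal pathway genes, Itgb8 rose and none fell, with a list median of 0.13 (0.579% of all rows rose). Itgb8, an integrin subunit that releases TGF-beta from its latent complex, was at 173 and 165 normalized counts (libraries 1 and 7) against 334 in each of libraries 2 and 8 (0.98 ± 0.13; limma, adjusted p = 0.0301). The 2 values of each group nearly coincided, but the call was lost without library 1, 2 or 8 (limma, adjusted p = 0.0567, 0.109 and 0.158), with values of 0.97 to 1.01 in those fits. Rgmb, a BMP co-receptor gene, was at 1572 and 1268 in the untreated and 894 and 797 in the treated libraries (-0.74 ± 0.13), just outside the test (limma, adjusted p = 0.0501). Bmper, which encodes a BMP-binding secreted protein, was at 908 and 803 in the untreated and 539 and 602 in the treated libraries (-0.58 ± 0.11; limma, adjusted p = 0.0613). For all 3 genes the groups were apart.

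None of the 44 listed intracellular partners and regulators passed, and their median was -0.04. The smallest p there was that of Nedd4l, a ubiquitin ligase gene (-0.36 ± 0.09; limma, adjusted p = 0.106), followed by Pmepa1 (-0.31 ± 0.11), which is itself induced by TGF-beta, and Zfp423 (-0.26 ± 0.09). Of the 13 listed BMP response genes 2 fell, Prdm16 and Id4, with a list median of -0.21 (1.79% of all rows fell). Values lay below 0 for 11 of the 13, against 49.4% of all rows. Groups were apart and lower with doxycycline for 7, against 26.5% of all rows, and apart and higher for 1, against 26.7%. Atoh8 had the next smallest p (-0.68 ± 0.20; limma, adjusted p = 0.142). The list was chosen with earlier results of these data known, so these counts are no test of a BMP response. Id4, an inhibitor of basic helix-loop-helix factors, was at 1145 and 812 in the untreated and 388 and 382 in the treated libraries (-1.32 ± 0.17; limma, adjusted p = 0.0283). That call was lost without library 2 or 8 (limma, adjusted p = 0.0767 and 0.117) and without an intensity trend (limma, adjusted p = 0.0687), with values of -1.33, -1.31 and -1.32. The other Id genes had smaller differences, and whether they differ from Id4 in this was not tested. Id1 had a value of -0.09 ± 0.08, Id3 one of -0.20 ± 0.07 and Id2 one of 0.09 ± 0.14. Prdm16, a zinc finger gene, was at 283 and 229.8 in the untreated and 43.6 and 57.3 in the treated libraries (-2.33 ± 0.24; limma, adjusted p = 0.0201), and it passed whichever single library was left out. None of the 24 listed TGF-beta response genes passed. Of them 18 had values above 0, as had 5944 of all 11747 rows, and their median was 0.17. Groups were apart and higher with doxycycline for 8 of the 24, against 26.7% of all rows. They were apart and lower for 3, against 26.5%. Cyr61 (0.45 ± 0.10) and the fibronectin gene Fn1 (0.24 ± 0.06) had positive values, and Ank3 had -0.29 ± 0.07.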

How the data were processed

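Total RNA of 4 samples was made into TruSeq libraries and read on a HiSeq machine, per the labels' protocols. Tools named in the submitters' processing notes are CASAVA, TopHat2, HTSeq, DESeq and the build mm9, with no versions, settings or roles. The deposited signal is a normalized read count per gene, which the authors obtained, as far as the values show, by dividing counts by 1 size factor per library. With steps of 0.894, 1.07, 1.18 and 0.882 in libraries 1, 7, 2 and 8 read as the value of 1 read, 100.0% of the values above 0 were whole reads within 0.02 of a read, and these gave the estimated reads. No count model was fitted to them, and all tests are on the log scale. Column names carry treatment initials, which gave each column its group, and numbers that are not the labels' replicate numbers.

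Values were analysed as log2(normalized count + 1) for 11747 rows (a minimum mean of 10 removed none) with limma 3.58.1 in R 4.3.3, an intensity trend, two-sided, adjusted by Benjamini-Hochberg. Degrees of freedom were 2 (residual) and 3.83 (prior). With 2 libraries per group the smallest p of an exact permutation test is 0.333. The limma fit was checked on simulated libraries drawn independently, with no difference by library number. That check therefore does not cover data in which libraries differ by number, as these do. Libraries of a group differed by more than sampling noise (chi-square per degree of freedom 26.4 and 28.3). Levels per kb use the longest GENCODE M21 transcript matched by accession, found for all 37 genes. The sources used here do not say if counting used strand, and reads of overlapping genes cannot be separated.

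The 37 genes and all lists were chosen with earlier results of these data known. Any of the 37 could be named; of other lists, genes past the test and up to 3 with the smallest p, and of marker lists up to 3 with the highest level. Id1, Id2, Id3, Sox7, Sox17, Foxa1, Fabp7, Shh and Kdr fall outside this rule and were named after their values were seen. Alternatives were other pseudocounts, filters, scalings and variance models, a block by column number and each library left out. Other software was Python 3.11.15 with scipy 1.17.1, numpy 2.4.6, pandas 2.3.3 and matplotlib 3.10.9.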

Additional observations from a re-analysis of the deposited data

How the results depend on the processing

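The count of 0 of the 37 genes past the limma test (3 at an unadjusted p under 0.05) stood with pseudocounts of 0.5 and 5, no filter, a minimum mean of 50, TMM factors, quantile normalization, robust empirical Bayes and no intensity trend. Leaving out 1 library in turn gave 0 to 1 of them, Bmp1 without library 7. With a replicate block by column number, a fit with 1 residual degree of freedom, 10 passed, 27% of the 37 against 29.9% of all rows: Smad6, Ltbp3, Ltbp4, Bmpr1a and Bmpr1b higher, and Smad7, Acvr1b, Fst, Nog and Bmp1 lower. The labels do not say that the numbers pair libraries, and deviations of libraries 1 and 2 from their group means correlated at 0.63 across rows, so this is a hint from the data. Over all rows 278 passed, against 419 with robust empirical Bayes, 105 without a trend, 3508 with the replicate block and 44 to 494 with 1 library left out. For 19 of the 37 genes the direction held under every alternative, and for 14 of the 19 the value moved by more than 1.5 times under some alternative, the exceptions being Acvr1b, Bmpr1a, Ltbp4, Smad1 and Tgfb1. The others crossed 0 with 1 library left out, none of them past the test: Acvr1 (-0.029 to 0.15), Acvr2b (-0.26 to 0.092), Bmp2 (-0.38 to 0.25), Bmp7 (-0.14 to 0.059), Chrd (-0.15 to 0.019), Fst (-0.93 to 0.16), Gdf11 (-0.18 to 0.041), Ltbp1 (-0.11 to 0.026), Nog (-1.14 to 0.17), Smad3 (-0.057 to 0.075), Smad5 (-0.23 to 0.019), Smad7 (-0.61 to 0.044), Smurf1 (-0.20 to 0.027), Smurf2 (-0.11 to 0.086), Tgfb2 (-0.057 to 0.044), Tgfbr2 (-0.56 to 0.23), Tgfbr3 (-0.60 to 0.46) and Tgfbrap1 (-0.061 to 0.0098). Smurf2 also did with quantile normalization (0.010). The cause of these changes was not tested. The lowest estimated read number behind a value of the 37 genes was 72, that of Nog in library 2. Itgb8, from the list of modulators, and Id4 and Prdm16, from the list of BMP response genes, had passed the test outside the 37. All 3 kept their direction under every alternative.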
